A study of Mus musculus with 2 samples.

Results

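The miR-26 family of mouse consists of miR-26a and miR-26b, and every mature entry of both was examined, guide and passenger arms and all hairpin copies included. The members were found by name, which gave 5 of the 1147 entries of the miRNA table: mmu-miR-26a-5p, mmu-miR-26b-5p, mmu-miR-26a-1-3p, mmu-miR-26a-2-3p and mmu-miR-26b-3p. Small RNA was sequenced from the tunica muscularis, the smooth muscle wall, peeled from the jejunum of C57BL/6 mice at postnatal day 15. Mice of both groups carried 1 smMHC Cre-eGFP allele, in which the promoter of the smooth muscle myosin gene *Myh11* drives Cre recombinase and a green fluorescent reporter. In *Dnmt1*-KO the lox-flanked *Dnmt1* alleles, which encode the maintenance DNA methyltransferase, were deleted in cells that express this Cre (Dnmt1-/-), whereas *Dnmt1*-WT kept the gene intact. By this design, cells of the wall that never expressed the Cre keep *Dnmt1* in both groups, which was not measured here. The study compared the genotypes to learn which miRNAs differ when smooth muscle loses *Dnmt1*. There was 1 library per genotype, so variation among animals could not be estimated for any value below, and none has a p-value. Males and females of each genotype are listed in the methods, which do not say how their RNA was combined. The description given for the WT sample is that of the mutant, whereas its title and genotype label say WT, and the latter were used. The *Dnmt1* transcript is no small RNA, and the labels could therefore not be checked by its level.

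A miRNA is cut from a hairpin transcript, whose 5′ and 3′ arms (5p and 3p) pair as a duplex. One strand, the guide, is kept by an Argonaute protein and finds target transcripts mainly through its seed, bases 2 to 8, while the passenger strand is mostly discarded. The miR-26 guides are the 5p arms. Their hairpins lie in introns of the *Ctdsp* genes, which encode small phosphatases that act on the C-terminal domain of RNA polymerase II. Among the known targets of miR-26 is *Ezh2*, the enzyme that methylates histone H3 at lysine 27, and miR-26a is known to restrain differentiation of vascular smooth muscle cells through SMAD signalling.

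The guide sequences come first because they show why the family is counted as 2 guides although it has 3 hairpins. They are from RefSeq (GRCm38.p6), written 5′ to 3′ with the seed in capitals.
mmu-miR-26a-5p: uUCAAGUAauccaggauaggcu
mmu-miR-26b-5p: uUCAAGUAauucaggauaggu
Both guides carry the seed UCAAGUA, which pairs with UACUUGA in a target, and no other name among the 1679 mature miRNAs of that table carries it. Counted from 1 at the 5′ end, they differ at 2 of 21 aligned positions, by the substitutions C11U and C21U from miR-26a-5p to miR-26b-5p, and miR-26a-5p is 1 base longer. The guide of miR-26a has the same sequence at chr9:119031811-119031832 and chr10:126995543-126995564, both on the plus strand, so its reads cannot be divided between the copies. The guide of miR-26b lies at chr1:74394324-74394344, plus strand.

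The passenger sequences are shown because they are the only mature products that tell the copies of miR-26a apart. The 8 of 22 positions at which the 3 passengers are not all alike are in capitals.
mmu-miR-26a-1-3p: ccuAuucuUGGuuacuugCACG
mmu-miR-26a-2-3p: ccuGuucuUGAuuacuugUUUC
mmu-miR-26b-3p: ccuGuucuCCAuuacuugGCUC
The passengers of the miR-26a copies differ at 6 positions (A4G, G11A, C19U, A20U, C21U and G22C, from copy 1 to copy 2). The passenger of copy 2 differs from miR-26b-3p at 4 positions, and that of copy 1 differs from miR-26b-3p at 8. Bases 2 to 8 read CUAUUCU in copy 1 and CUGUUCU in the other passengers.

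The complete hairpins place both arms, in capitals, on either side of the loop.
Mir26a-1: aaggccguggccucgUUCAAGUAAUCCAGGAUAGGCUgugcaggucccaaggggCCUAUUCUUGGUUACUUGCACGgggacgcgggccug
Mir26a-2: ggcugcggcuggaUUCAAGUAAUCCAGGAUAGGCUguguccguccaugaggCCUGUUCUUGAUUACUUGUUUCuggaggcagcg
Mir26b: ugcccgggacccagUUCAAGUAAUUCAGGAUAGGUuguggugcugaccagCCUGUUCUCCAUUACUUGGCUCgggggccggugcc
In GENCODE M21 (GRCm38) Mir26a-1 (chr9:119031796-119031885) lies in intron 5 of *Ctdspl*, in the principal transcript with 8 exons. Mir26a-2 (chr10:126995530-126995613) lies in intron 5 of *Ctdsp2*, whose principal transcript also has 8 exons, and it overlaps an exon of the other annotated *Ctdsp2* transcript. Mir26b (chr1:74394310-74394394) lies in intron 4 of *Ctdsp1*, in a transcript with 7 exons. Each hairpin is on the plus strand, as its host is, and no other annotated gene overlaps it. The introns differ in length, with 3283 bases for Mir26a-1, 1946 for Mir26a-2 and 564 for Mir26b. Host transcripts were not measured in these libraries.

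The libraries held a summed value of 5741906 for *Dnmt1*-WT and 4754677 for *Dnmt1*-KO, with 963 and 978 entries above 0, and 1 unit was close to 1 read. The smooth muscle miRNA miR-143-3p was the most abundant entry of both libraries and took 30.9% of WT and 25.9% of KO. As deposited, the KO/WT ratio had a median of 1 across the 794 entries detected in both libraries and of 0.913 across the 136 entries whose mean reached 1000. Each interval given with a value is a 95% interval for counting error only, since PCR copies of a molecule could not be told from separate molecules.

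The guides of the family moved in opposite directions between the libraries. miR-26a-5p, the guide made by both *Ctdspl* and *Ctdsp2*, had a value of 312085.5 in *Dnmt1*-WT and 362597.0 in *Dnmt1*-KO. It was higher in KO, with a KO/WT ratio of 1.16 (1.16 to 1.17), a log2 ratio of 0.22 and a difference of 16.2%. miR-26b-5p, the guide from *Ctdsp1*, had a value of 43020.0 in *Dnmt1*-WT and 32185.0 in *Dnmt1*-KO. It was lower in KO, with a ratio of 0.748 (0.737 to 0.759), a log2 ratio of -0.42 and a difference of -25.2%. Neither interval includes 1, and both ratios lie within 2-fold.

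By rank, miR-26a-5p was among the most abundant miRNAs of this tissue. It was number 4 in *Dnmt1*-WT, after miR-143-3p, miR-10a-5p and let-7c-5p, and number 3 in *Dnmt1*-KO, where it passed let-7c-5p. It took 5.44% of the WT library (5.42 to 5.45, Wilson) and 7.63% of the KO library (7.60 to 7.65). On the deposited scale its gain of 50511.5 was the third largest among all entries, after miR-127-3p (88695.6) and miR-10b-5p (82331.3). It was larger than that of miR-486a-5p (34164.8). Gains in library share were not ranked, and their order may differ. miR-26b-5p was number 27 in both libraries, at 0.749% of WT (0.742 to 0.756) and 0.677% of KO (0.670 to 0.684). Its neighbours in WT were miR-10b-5p at 44848.9 and miR-99b-5p at 33869.8. In KO they were miR-30e-5p at 35182.4 and miR-125b-5p at 31311.2. With a single library per genotype, no spread over samples was available to say which neighbours differ.

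The passengers were rare. miR-26b-3p had 212.6 in *Dnmt1*-WT and 151.6 in *Dnmt1*-KO (212 and 152 reads), and it was lower in KO, with a ratio of 0.713 (0.575 to 0.882). miR-26a-2-3p, the passenger from the *Ctdsp2* locus, had 24.1 and 24.9 (24 and 25 reads), a ratio of 1.03 (0.568 to 1.89). miR-26a-1-3p, the passenger from the *Ctdspl* locus, had 3.0 and 7.0 (3 and 7 reads), a ratio of 2.33 with an interval from 0.530 to 13.9. For the passengers of miR-26a a difference between the libraries was not detectable at this depth, and the WT value of miR-26a-1-3p is at the limit of 3 reads that a count of 0 would allow.

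**Figure D1:**
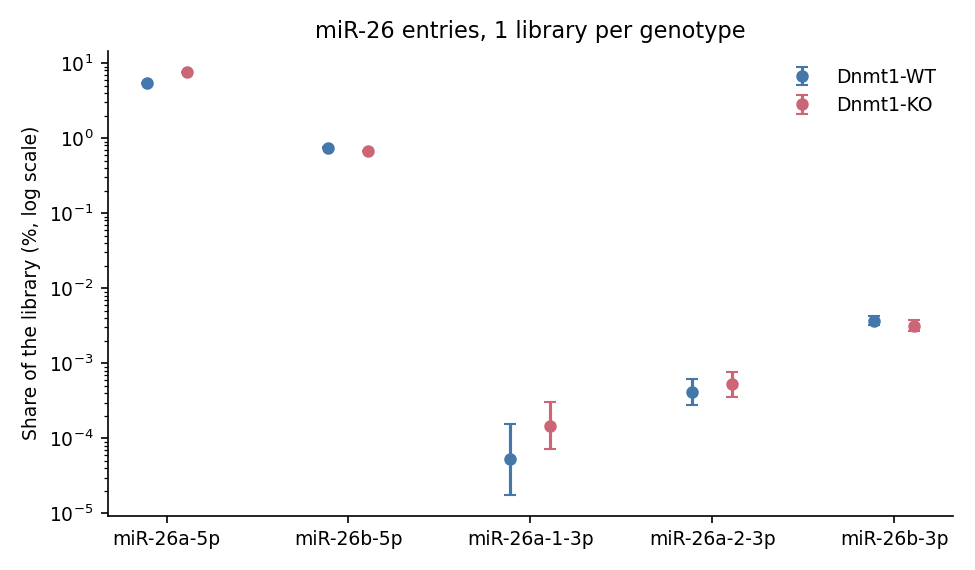
Share of each library taken by the 5 miR-26 entries, in percent on a log axis, with 1 point per library (blue, *Dnmt1*-WT; red, *Dnmt1*-KO) and 95% Wilson intervals for counting error. miR-26a-5p went from 5.44% to 7.63% of the library while miR-26b-5p went from 0.749% to 0.677%, and the intervals of both miR-26a passengers overlap between the libraries.

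Among all entries, 26.7% were at least 2-fold higher in KO and 23.1% at least 2-fold lower, most of them at low counts. Of the 5 miR-26 entries, 1 was at least 2-fold higher, miR-26a-1-3p on 3 against 7 reads, and 0 were at least 2-fold lower. With a mean of at least 100, the shares over all 316 entries were 6.33% higher and 8.86% lower, and 0 of the 3 miR-26 entries at that level (both guides and miR-26b-3p) passed 2-fold in either direction. Among the 136 entries whose mean reached 1000, 43 had a larger ratio than miR-26a-5p, 42 a smaller ratio than miR-26b-5p, and 49 lay between them. The guides therefore stood well inside the range of the abundant miRNAs.

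**Figure D2:**
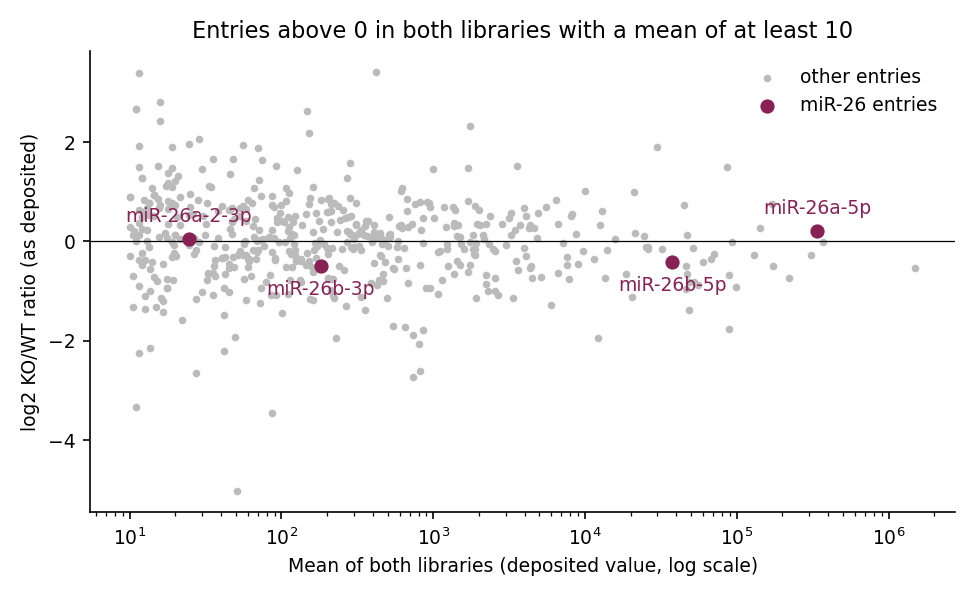
log2 KO/WT ratio of the deposited values (y axis) against the mean of both libraries (x axis, log scale) for entries detected in both libraries whose mean was at least 10, with the miR-26 entries named. miR-26a-5p lies above 0 (0.22) and miR-26b-5p below it (-0.42), among the other abundant entries, and miR-26a-1-3p, with a mean of 5, is left out.

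The balance between the guides does not depend on how the libraries are scaled to each other, since both guides are counted in the same library. *Dnmt1*-WT held 7.25 reads of miR-26a-5p per read of miR-26b-5p, and *Dnmt1*-KO held 11.3. This was a change of 1.55 times (1.53 to 1.58), or 0.64 on the log2 scale. Stated as a share, miR-26b-5p made up 12.1% (12.01 to 12.22) of the guide reads of the family in WT and 8.15% (8.07 to 8.24) in KO, an odds ratio of 0.644 (0.634 to 0.654). With the passengers added, the miR-26b share was 12.2% and 8.19%. Summed over its 5 entries, the family had 355345.2 in WT and 394965.5 in KO, a ratio of 1.11 (1.11 to 1.12), and its share of the library was 6.19% and 8.31%. The pool of reads with the miR-26 seed was thus mostly miR-26a-5p in both libraries.

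The guides were also set against the abundant entries of the same library. Per read of miR-143-3p, miR-26a-5p had 0.176 reads in WT and 0.294 in KO, 1.67 times as many (1.67 to 1.68). Per read of miR-145a-5p, the partner of miR-143 in smooth muscle, it had 1.13 reads in WT and 2.20 in KO, 1.94 times as many (1.93 to 1.96). Against let-7c-5p the change was 1.41 times (1.40 to 1.42) and against miR-10a-5p 1.17 times (1.16 to 1.18). Only against miR-127-3p, an imprinted miRNA of the Dlk1-Dio3 region, was miR-26a-5p lower among these 5 references, at 0.685 times (0.680 to 0.691). The direction for miR-26b-5p depended on the reference. It was higher in KO against miR-143-3p (1.08 times, 1.06 to 1.09) and miR-145a-5p (1.25 times, 1.23 to 1.27), and lower against let-7c-5p (0.905, 0.892 to 0.919), miR-10a-5p (0.755, 0.744 to 0.766) and miR-127-3p (0.441, 0.434 to 0.448).

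The scale of the deposited table is one choice among several. Setting the totals of the libraries equal gave a ratio of 1.40 for miR-26a-5p and 0.903 for miR-26b-5p, and leaving miR-143-3p out of the totals gave 1.31 and 0.842. Leaving the miR-26 entries out of the totals gave 1.44 and 0.924, and setting the median ratio of the 136 abundant entries to 1 gave 1.27 and 0.820. Under these 4 scalings miR-26a-5p stayed higher and miR-26b-5p lower in KO, and no interval included 1. For miR-26b-3p the ratio stayed under 1, but its interval reached past 1 with equal totals (0.861, 0.694 to 1.07) and with totals without the miR-26 entries (0.881, 0.710 to 1.09).

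**Figure D3:**
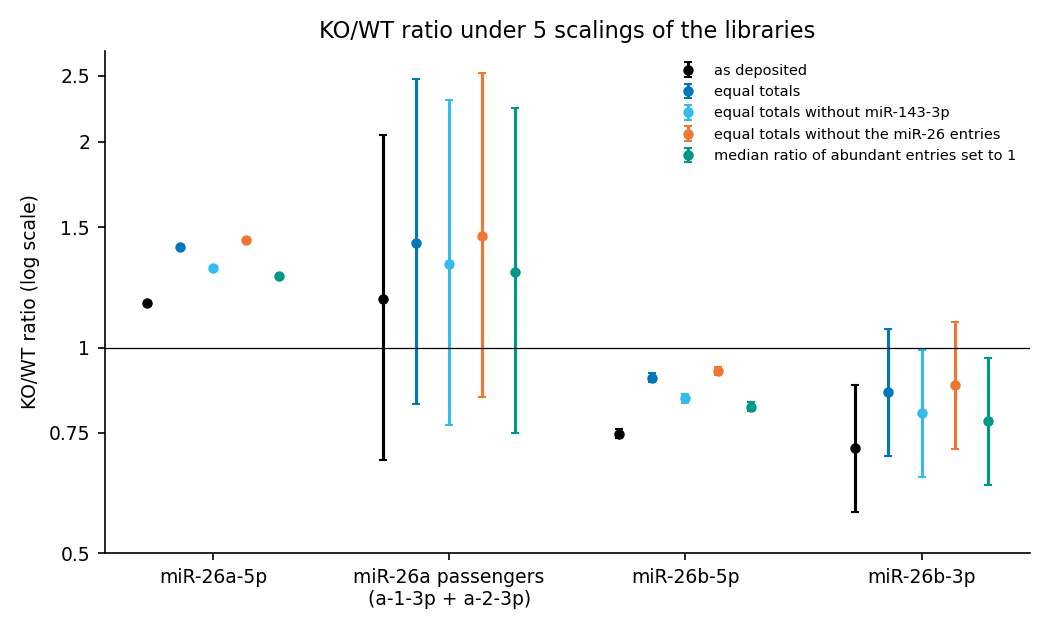
KO/WT ratio (log axis) of miR-26a-5p, the summed miR-26a passengers, miR-26b-5p and miR-26b-3p under 5 scalings of the libraries, with 95% intervals for counting error. Every ratio of miR-26a-5p is above 1 and every ratio of miR-26b-5p is below 1, while the intervals of the miR-26a passengers include 1 throughout.

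The passengers were used as a read-out of the loci. For miR-26b, whose only hairpin is in *Ctdsp1*, both arms were lower in KO to a like degree. The 3p arm made up 0.492% (0.430 to 0.562) of the miR-26b reads in WT and 0.469% (0.400 to 0.549) in KO, an odds ratio of 0.953 (0.773 to 1.17). For miR-26a, the passengers of both copies summed to 27.1 in WT and 31.9 in KO, a ratio of 1.18 (0.684 to 2.04), beside 1.16 for the guide. They made up 0.00868% (0.00596 to 0.0126) of the miR-26a reads in WT and 0.00880% (0.00623 to 0.0124) in KO, an odds ratio of 1.01 (0.608 to 1.69). The log2 ratios of the arms differed by 0.069 in miR-26b and by 0.019 in miR-26a, beside a median difference of 0.53 over 116 hairpins with an arm sum of at least 1000 and both arms above 0 in both libraries. The value for miR-26a rests on 27 and 32 passenger reads, whose ratio has the wide interval given above.

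Within the miR-26a passengers, the *Ctdsp2* copy gave most of the reads in both libraries. Copy 1, from *Ctdspl*, gave 3 of 27 passenger reads in WT, or 11.1% (exact interval 2.35 to 29.2). It gave 7 of 32 in KO, or 21.9% (9.28 to 40.0). The odds ratio was 2.24 with an interval from 0.440 to 14.8, so a shift between the copies was not detectable at this depth and one of several fold in favour of copy 1 lies within the interval. Whether the copies keep their passengers equally well was not tested, so these shares are not shares of the guide. Of 14 families chosen for having passengers named by copy, 10 others had both copies listed. The choice was not complete, since miR-129, miR-138 and miR-194, among others such as miR-7a and miR-365, also have passengers of both copies and were not compared. The interval of the odds ratio left out 1 in 3 of those 10, which is no tally of all such families. The 3 were miR-16, whose copy 1 went from 5.62% to 28.5%, miR-181a (47.0% to 56.9%) and miR-125b (72.3% to 66.6%). Only 1 of the 10, miR-128, had fewer passenger reads in WT than miR-26a.

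The hairpins of miR-26a and miR-26b differed strongly in passenger reads per guide read. Whether the libraries captured these different sequences equally well was not tested. In WT there were 202 guide reads per passenger read for miR-26b and 11526 for miR-26a, and in KO there were 212 and 11363. Per guide read, miR-26b thus had 57.0 times (38.2 to 85.0) as many passenger reads as miR-26a in WT and 53.5 times (36.5 to 78.4) in KO. As a result miR-26b-3p made up 88.7% (84.0 to 92.4) of all miR-26 passenger reads in WT and 82.6% (76.3 to 87.8) in KO, although its guide was the minor one. The odds ratio of that share was 0.605 (0.334 to 1.09). Among 119 hairpins with both arms listed and an arm sum of at least 1000, the share of the less abundant arm had a median of 1.15% in WT and 1.22% in KO. Hairpins with only 1 arm listed, such as miR-486a, were not ranked, and some of them could stand lower. With the libraries summed, miR-26a was number 2 from the lowest, next to let-7c, and miR-26b was number 45. With a minimum arm sum of 100, which admits more hairpins, miR-26a was again number 2 and miR-26b was number 61.

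**Figure D4:**
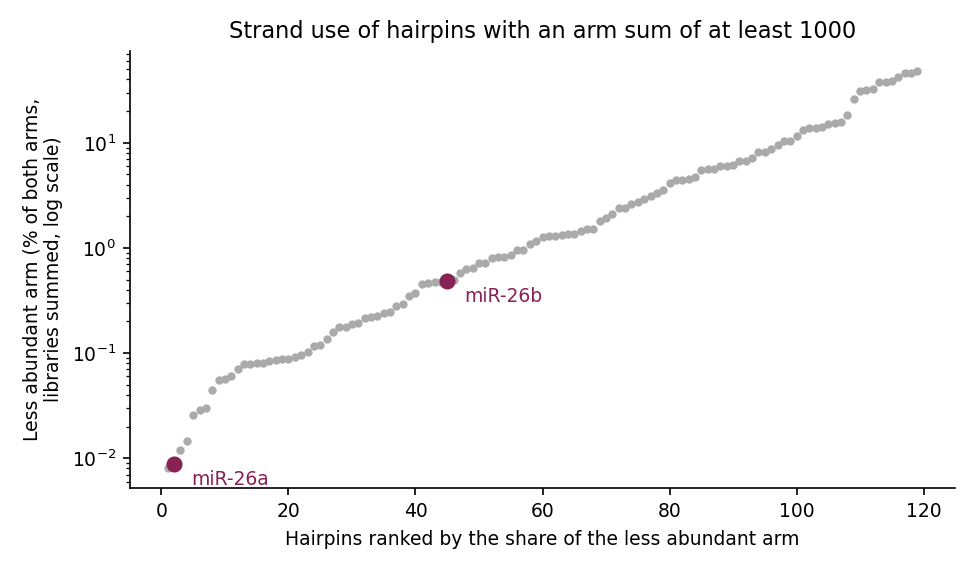
Share of the less abundant arm in both arms (y axis, percent on a log scale, libraries summed) for 119 hairpins with both arms listed, ranked from the lowest share (x axis). miR-26a is at rank 2 and miR-26b at rank 45, below the median of 1.28%.

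The miR-26 guides were set beside other miRNAs that share a seed. Over 77 pairs with the same seed and a mean of at least 1000 for both members, the absolute difference of the log2 ratios had a median of 0.48 and ranged from 0.0083 to 1.52. The pair of miR-26a-5p and miR-26b-5p had 0.64 and was number 24 from the largest. Without the let-7 and miR-98 pairs, the median was 0.57 over 41 pairs and the miR-26 pair was number 17. The members had opposite directions, as those of miR-26 did, in 33 of the 77 pairs (42.9%). Pairs were formed only among the 116 abundant entries with a matched sequence. Among the 6593 of these pairs with different seeds, 49.0% had opposite directions and the median difference was 0.58. At least as far apart as the miR-26 guides were 46.1% of them, beside 31.2% of the same-seed pairs (the miR-26 pair included). A difference of at least 0.64 and opposite directions were therefore each common among these pairs, whether or not the seed is shared. Pairs with both were not counted, and the directions are those on the deposited scale. The pairs with the largest differences were miR-10a-5p and miR-10b-5p (1.52), miR-148a-3p and miR-152-3p (1.46), and miR-16-5p and miR-322-5p (1.40). Pairs within a family share members and are not independent.

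**Figure D5:**
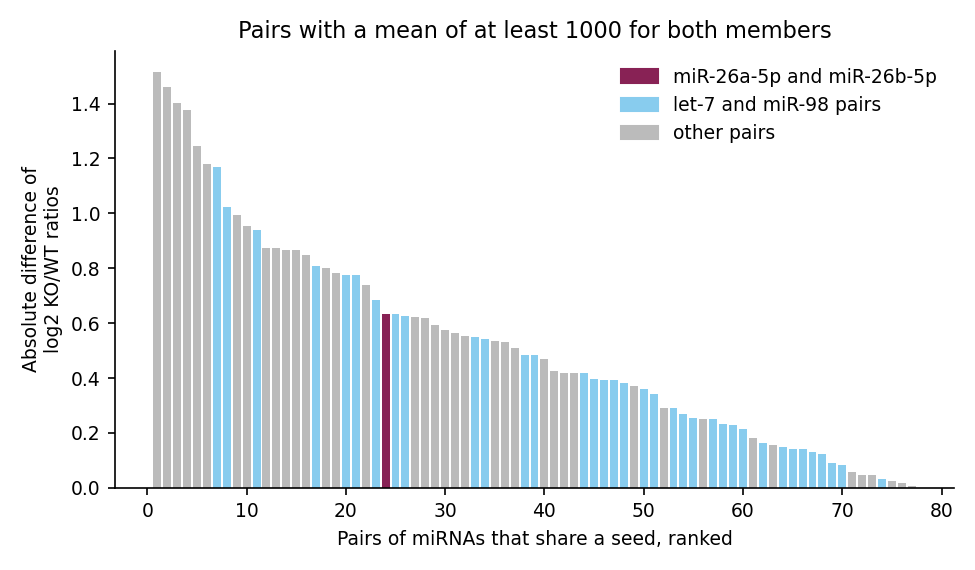
Absolute difference of the log2 KO/WT ratios (y axis) for 77 pairs of miRNAs with the same seed, ranked from the largest (x axis), with 1 bar per pair. The miR-26 pair (purple, 0.64) is at rank 24 and lies above the median of 0.48.

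Other miRNAs are also hosted in paralogous genes, as miR-103 and miR-107 are in the pantothenate kinase genes (*Pank*), miR-218 in the *Slit* genes and miR-148b and miR-152 in the *Copz* genes. Of 10 such entries, 9 were above 0 in both libraries. Of these, 4 were higher and 5 lower in KO, with a median ratio of 0.965 (0.584 to 2.59). Among the 4 were miR-211-5p, on 3 and 3.5, and miR-128-1-5p, on 10 and 25.9, which gave the ratio of 2.59. Of all 794 entries, 393 were higher and 334 lower, and of the 136 abundant entries 56 were higher and 80 lower. miR-103-3p had a ratio of 0.780 and miR-107-3p 0.584, a difference of 0.42 on the log2 scale in the same direction. miR-148b-3p had 1.09 and miR-152-3p 0.721, a difference of 0.59 in opposite directions. The difference between the miR-26 guides, 0.64, was the largest of these 3 pairs.

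The abundant entries with the ratio most like that of miR-26a-5p were miR-199a-5p (1.18), miR-199b-3p (1.13) and miR-423-5p (1.20). Those most like miR-26b-5p were miR-30d-5p (0.754), miR-384-5p (0.758) and miR-676-3p (0.762). Likeness was the difference of log2 ratios over 2 libraries, which is a single comparison.

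miRNAs known to mark cell types of the gut wall were compared beside the miR-26 values, and their counts stand against 393 higher and 334 lower of the 794 entries detected in both libraries and 56 and 80 of the 136 abundant ones. All 8 of the smooth muscle miRNAs (miR-143, miR-145a, miR-133 and miR-1a arms) were lower in KO, with a median ratio of 0.448 (0.259 to 0.694) and a summed value of 2217793.5 in WT and 1446709.3 in KO. None of them was at 0, so the labelled tissue showed its defining miRNAs in both libraries. Of 11 leukocyte miRNAs, 10 were higher (median 1.73, 0.913 to 5.01) and their sum went from 19006.8 to 29346.8. The most abundant, miR-146a-5p, went from 11057.8 to 13889.6, a ratio of 1.26, but miR-150-3p counts among the 10 on 3 against 4 reads. Much of the sum was miR-146a-5p and miR-146b-5p (1863.8 and 5306.9). Whether the reads of miR-146 and miR-155 came from leukocytes was not tested. All 4 red cell miRNAs had a ratio above 1, and their sum of 12745 in WT and 47217.1 in KO was nearly all miR-486a-5p (12591.6 and 46756.4), which muscle is also known to express. miR-451a, the defining red cell miRNA, went from 141.4 to 420.8, a ratio of 2.98 (2.45 to 3.63). The arms of miR-144 were rare, with 10 and 19 for miR-144-5p (ratio 1.90, 0.836 to 4.55) and 2 and 20.9 for miR-144-3p, whose WT value is under the limit of 3 reads and whose ratio has an interval from 2.55 to 91.9. Both endothelial miRNAs, the arms of miR-126a, were higher (1.27 and 1.62), with a sum of 10079.5 and 14281.5. Of 8 epithelial miRNAs 4 were higher and 4 lower (median 1.14, 0.886 to 1.79, sum 14503 and 18128.6). This list held 1 arm of each miRNA, unlike the smooth muscle and leukocyte lists, and its even split holds for those arms only. The unlisted arms with a mean of at least 10 were miR-215-3p, miR-194-1-3p, miR-194-2-3p, miR-200a-5p and miR-200b-5p. All were higher in KO, with log2 ratios from 0.07 to 2.66 at means from 11 to 98.45. Of 5 neural miRNAs 2 were higher and 3 lower (median 0.965, 0.504 to 1.28, sum 6579.6 and 6871.5). No member of these lists was at 0 in either library. The part of these cell types in the values of miR-26 was not tested, and in whole tissue fewer cells of a type and less RNA per cell cannot be told apart.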

How the data were processed

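The miR-26 entries were chosen with earlier results of these data known, and so were the lists and comparisons. Per the labels and the methods, small RNA was extracted with a mirVana kit and made into TruSeq Small RNA libraries, and the submitters' processing notes name Bowtie and the build mm10. How reads matching more than one miRNA were handled and how the values were scaled are not given in the sources used here. The authors deposited 1 table with a scaled expression value for each miRNA and library, which is neither a raw count nor CPM. Of values from 20 to 300, 88.6% in WT and 91.1% in KO were whole multiples (within 0.06 reads) of a step of 1.00286 and 0.997209, which gave 5725538 and 4767993 implied reads. A deposited column with the authors' own fold change was not used.

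The ratio of deposited values was taken without pseudocount. Its exact (Clopper-Pearson) interval came from the share of implied reads in KO (scipy 1.17.1). Shares of a library, of the guides or of a hairpin carry Wilson intervals, and shares of the passengers exact ones. Odds ratios carry Wald intervals on the log scale, or conditional exact ones for shares among passengers. A miRNA at 0 may hold up to 3 reads, 5.24e-05% of WT and 6.29e-05% of KO. Sequences of 918 of 1080 mature entries were matched by name in RefSeq. Named were all miR-26 entries, the 3 abundant entries nearest in ratio to each guide and the 5 most abundant. The 3 same-seed pairs farthest apart and the most abundant member of each list were also named. Any other was named after looking at its values. Other scalings, minimum values and pseudocounts were tried, and the scripts were tested on simulated data.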

Additional observations from a re-analysis of the deposited data

How the results depend on the processing

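With 1 library per genotype nothing here speaks to variation between animals, and depth limits the passengers of miR-26a to 27 and 32 reads. No paired analysis was possible because each genotype has 1 library, and the number 1 that both carry is only a name. The KO/WT ratio was 1.40 for miR-26a-5p, 0.903 for miR-26b-5p and 1.34 for the summed family with equal totals. It was 1.31, 0.842 and 1.25 with equal totals without miR-143-3p, 1.44, 0.924 and 1.37 with equal totals without the miR-26 entries, and 1.27, 0.820 and 1.22 with the median of abundant entries set to 1. These scalings multiply every ratio by one factor, from 1.10 to 1.24 (log2 shifts of 0.13 to 0.31). The count of entries at least 2-fold higher in KO was 306, and 62, 20 and 6 at a minimum mean of 10, 100 and 1000. The count at least 2-fold lower was 265, and 54, 28 and 10. The share of entries past 2-fold fell as well, from 26.7% higher and 23.1% lower over all entries to 6.33% and 8.86% at a mean of at least 100. Of the 69 values recomputed, 51 stayed within their counting error or within 1.5 times their count, 18 moved and 0 reversed direction. Every rescaling of the ratios of both guides and of the summed family was among those that moved. Counts, shares, ranks and the median difference of the pairs have no direction to reverse. Ratios to single entries of the same library were not in this tally. Among those, miR-26b-5p was higher in KO against miR-143-3p (1.08 times) and miR-145a-5p (1.25 times). The scalings and pseudocounts of the summed miR-26a passengers, the seed pairs without let-7 and miR-98, and the smaller arm sum were added after seeing the data.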
